A study of Mus musculus with 16 samples.

Results

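The comparison described here set the somatosensory cortex of AcPb-/- mice against that of wild-type mice, both collected directly after sleep disruption (SD). Its members were taken by the deposited table of that contrast, which holds SD-AcPbKO replicates 02, 03 and 04 and SD-WT replicates 01, 02 and 04. These are 6 of the 12 libraries with values in the series, whose labels list 16 samples, and 1 further sample of each SD group was not analysed here. Of 24421 genes listed, 20621 were compared, and the remaining 3800 had no read in any of the 6 libraries.

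Wild-type C57BL/6 mice and mice homozygous for the AcPb-/- allele were labelled male, came from Jackson Laboratories, were bred for 5 to 7 generations at Washington State University and were 2 to 3 months old. Both groups were kept awake for 8 h by gentle handling, from ZT20, late in the dark period, to ZT4, where ZT0 is light onset. The labels give as many mice as samples in each SD group, and genotypes were read from tail snips. The AcPb-/- allele is carried by every cell of the animal, the labels call the genotypes strains without naming littermates, and how the AcPb exon was removed is not given in the sources used here. Undisturbed mice of the same genotypes, 3 CTL-WT and 3 CTL-AcPbKO libraries collected at ZT4, serve below only to set the same contrast beside the one after SD.

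Reads counted on genes ranged from 58770286 to 71775967 in wild-type mice and from 63413467 to 71857505 in AcPb-/- mice after SD, and from 26504840 to 41615582 in undisturbed mice. All 6 SD libraries had 5 to 13 reads of Xist and 8548 to 10593 reads of Y-linked genes, whereas CTL-WT replicates 02 and 03 and CTL-AcPbKO replicates 04 and 05 had 25352 to 39358 Xist reads and at most 2 Y-linked reads, as female mice do and against their label. CTL-WT replicate 01 and CTL-AcPbKO replicate 03 had 13 and 12 Xist reads and 5398 and 5105 Y-linked reads. On the first principal component (31.8% of the variance) SD-AcPbKO replicate 04 stood apart at -32.0, with the other SD libraries between -1.27 and 19.0. On the second (22.5%) SD-WT replicate 04 stood apart at 26.9, with the others between -12.8 and 2.52. Markers of tissue beside the cortex were high in SD-AcPbKO replicate 04. Ttr, the transthyretin of choroid plexus, had 115, 67.2 and 36.6 normalized counts in wild-type mice and 40.3, 128 and 22268 in AcPb-/- mice. The 13 choroid plexus and ependyma markers summed to 26012 in SD-AcPbKO replicate 04 against 969 to 1214 in the other 5 libraries. The 15 striatal markers summed to 49443 there against 35061 to 37484 elsewhere. Counts for the main gene lists are given with and without this library. Cortical identity was plain in every library, with Slc17a7, the vesicular glutamate transporter of cortical excitatory neurons, between 68931 and 85091 normalized counts.

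IL1 beta is an inflammatory cytokine that also promotes sleep. It binds the IL1 type I receptor, which then pairs with the accessory protein encoded by Il1rap. The common form, AcP, carries an intracellular domain that recruits MyD88 and IRAK kinases and leads to NF-kB. Neurons in addition splice the transcript to a different last coding exon and make AcPb, a form with an altered intracellular domain that is known to temper or redirect IL1 signalling in neurons.

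The isoforms part within the gene, and the junctions are shown because they mark what is lost in AcPb-/- mice. In each line the last 20 bases of the shared exon (chr16:26712241-26712260, plus strand, GRCm38, which is mm10) are in lower case and the first 70 bases of the last exon of that isoform are in capitals (chr16:26714701-26714770 for AcP and chr16:26722356-26722425 for AcPb, all coding):
AcP: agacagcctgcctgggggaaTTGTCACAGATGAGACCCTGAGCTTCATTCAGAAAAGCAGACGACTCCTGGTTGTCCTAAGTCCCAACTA
AcPb: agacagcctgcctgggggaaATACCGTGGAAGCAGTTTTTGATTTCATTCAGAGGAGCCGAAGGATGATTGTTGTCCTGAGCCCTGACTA
In GENCODE M21 both transcripts have 11 exons. They encode 570 residues for AcP and 685 for AcPb, and 365 and 710 coding bases lie in the respective last exons. The deposited values are counts per gene, so reads from the AcPb exon cannot be told apart from those of exons that the isoforms share.

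Il1rap (chromosome 16 from 26581704 to 26730117) was therefore no check of the genotype labels at the level of the gene. It had 2500.0, 2635 and 2375 normalized counts in wild-type mice, in the order of replicates 01, 02 and 04, and 2822, 2642 and 2646 in AcPb-/- mice, in the order of replicates 02, 03 and 04 (both orders are kept throughout). Every AcPb-/- library lay above every wild-type one, though the nearest pair, SD-WT replicate 02 and SD-AcPbKO replicate 03, nearly met. A normalized count is the number of reads of a gene divided by a size factor of its library, and fold changes are differences of log2(normalized count + 1), AcPb-/- minus wild-type, which understates the change of genes with few reads. The log2 fold change of Il1rap was 0.11 (SE 0.07; 0.07 to 0.15 with each library left out), with an adjusted p of 0.874 in limma's moderated test with Benjamini-Hochberg adjustment.

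A transcript beside it followed the genotype. Gm20319, an antisense RNA (chromosome 16 from 26714446 to 26755502, minus strand), had 1, 0 and 2 reads in wild-type mice and 15, 22 and 16 reads in AcPb-/- mice. Every AcPb-/- library was above every wild-type one, and undisturbed mice showed the same, with 2, 1 and 1 reads against 9, 6 and 10. With so few reads in wild-type mice no fold is given. The adjusted p was 0.0565 in limma and 0.0222 in DESeq2 on the reads, so it passed the threshold in the latter. Exons of Gm20319 overlap those of Il1rap on the other strand in 49.1% of their bases, 353 of them in the last exon of AcP and 0 in that of AcPb, and which strand was counted is not given in the sources used here, so its reads and those of Il1rap cannot be told apart there. Upstream of Il1rap, Tmem207 (chromosome 16 from 26503656 to 26526769), which encodes a transmembrane protein, had 0 reads in all 6 wild-type libraries of the series, 6, 6 and 8 reads in AcPb-/- mice after SD and 4, 4 and 5 in undisturbed AcPb-/- mice. At this depth it was detected in AcPb-/- libraries alone, and its adjusted p after SD was 0.0565 in limma and 0.156 in DESeq2, so it passed neither threshold.

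Across all genes the genotypes were close. Genes past the threshold, an adjusted p under 0.05 in limma over all genes tested, numbered 3 of 20621 (0.0145%), 1 higher and 2 lower in AcPb-/- mice. Before adjustment, limma's p was under 0.05 for 1265 genes (6.13%). Among the 16389 genes that averaged 10 or more normalized counts, 96.8% differed by less than 0.5 on the log2 scale, 80 differed by more than 1, and the median standard error was 0.0975.

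The 3 genes were Bub1b, Dsp and 2610035D17Rik. Bub1b (chromosome 2 from 118598211 to 118641591) encodes a kinase of the spindle assembly checkpoint, which acts in dividing cells. It had 255, 186 and 217 normalized counts in wild-type mice and 36.0, 20.6 and 25.4 in AcPb-/- mice. The groups were far apart, with every AcPb-/- library well below the lowest wild-type one. The mean was 219 ± 34.7 against 27.3 ± 7.89 (SD, n = 3 each), a log2 fold change of -2.98 (SE 0.23, limma adjusted p = 0.00556).

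Dsp (chromosome 13 from 38151294 to 38198577) encodes desmoplakin, which ties desmosomes to intermediate filaments and is also a marker of dentate granule neurons. It had 11.1, 10.2 and 19.3 normalized counts in wild-type mice and 83.7, 143 and 203 in AcPb-/- mice. It was low in all wild-type libraries and higher in each AcPb-/- library, by 3.27 on the log2 scale (SE 0.35, limma adjusted p = 0.0302). Of the 13 other hippocampal and thalamic markers, 1, Rgs16, had groups that did not overlap. Counting Dsp, 12 of 14 had a fold change above 0, with a median of 0.20. Without overlap 2 of the 14 were higher, and 4 without SD-AcPbKO replicate 04, against 5.35% and 9.06% of all genes. The 14 markers with Dsp summed to 7186 to 7600 in wild-type and 8019 to 8683 in AcPb-/- mice, and Prox1, which defines dentate granule cells, had 638, 579 and 468 and 661, 584 and 707 normalized counts. The part of hippocampal tissue in the result of Dsp was not tested. Exons of Gm10129 on the other strand overlap 5.17% of the bases of Dsp.

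The third gene was the long noncoding RNA 2610035D17Rik (chromosome 11 from 113043895 to 113201838), which the rule for named genes does not cover and which is named since the count is small. It had 814, 798 and 813 normalized counts in wild-type mice and 323, 335 and 421 in AcPb-/- mice. The libraries of each genotype lay close together and the AcPb-/- ones were all lower, a log2 fold change of -1.18 (SE 0.11, limma adjusted p = 0.0169). With any 1 of the 6 libraries left out, 0 genes passed the limma threshold, although the fold changes kept their size, at -3.19 to -2.80 for Bub1b, 2.98 to 3.61 for Dsp and -1.29 to -1.10 for 2610035D17Rik.

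In undisturbed mice the same 3 genes split the AcPb-/- libraries. Bub1b had 105, 123 and 104 normalized counts in CTL-WT replicates 01 to 03 and 118, 14.2 and 18.6 in CTL-AcPbKO replicates 03, 04 and 05. Dsp had 13.9, 8.24 and 10.6 against 9.55, 68.3 and 44.4, and 2610035D17Rik had 487, 407 and 452 against 472, 209 and 186. CTL-AcPbKO replicate 03 was in the wild-type range at all 3 genes, while the other two AcPb-/- libraries differed from wild-type mice in the direction seen after SD. That split falls together with the Xist and Y-linked reads, since replicate 03 is the AcPb-/- library with Y-linked reads, while the wild-type libraries, which differ in them too, lay close together at Bub1b (105 with Y-linked reads, 123 and 104 without). The part of sex in the split was not tested. At Tmem207 and Gm20319 the same replicate 03 had 4 and 9 reads, as the other AcPb-/- libraries did. SD and undisturbed libraries were normalized separately, so their levels are not set against each other here.

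**Figure D1:**
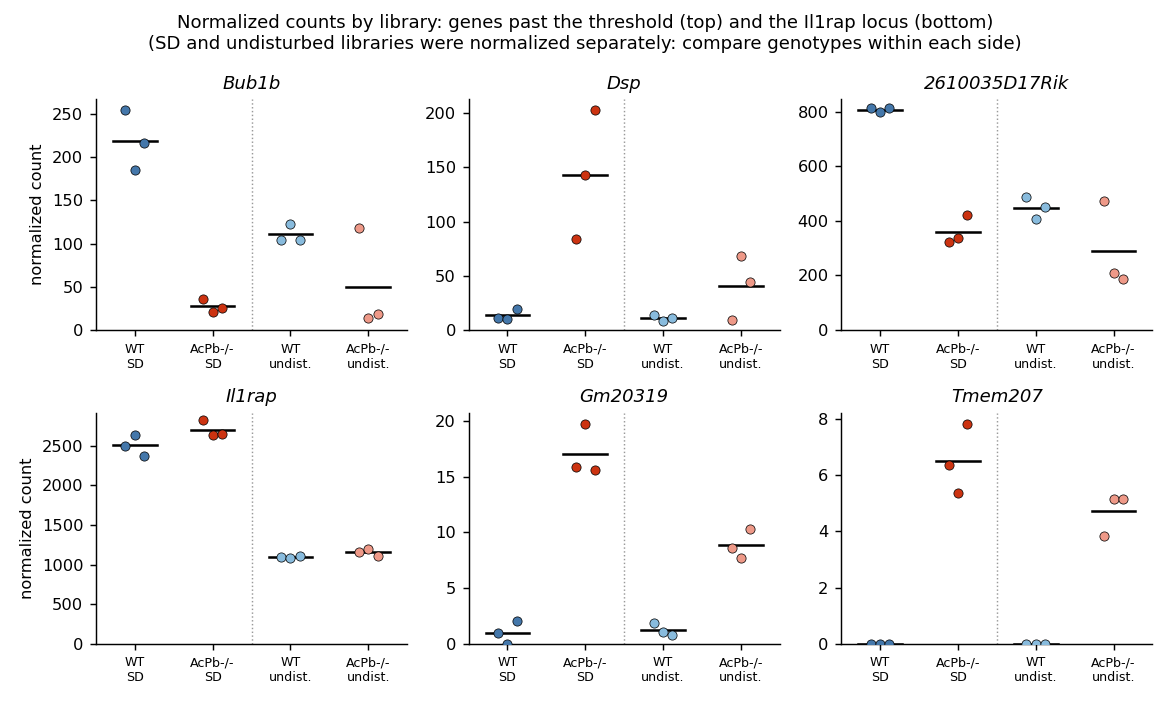
Normalized count of 6 genes in each of the 12 libraries (points) with the group mean (line), the libraries after SD left of the dotted line and the undisturbed ones right of it. After SD the genotypes do not overlap in Bub1b, Dsp, 2610035D17Rik, Gm20319 and Tmem207, Il1rap is nearly level, and 1 undisturbed AcPb-/- library lies with the wild-type mice in the top row.

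The deposited values return whole reads, which allowed a test of counts. DESeq2 on these reads placed 99 of 17816 genes past an adjusted p of 0.05 (0.556%), 56 lower (0.314%) and 43 higher (0.241%) in AcPb-/- mice, and edgeR's quasi-likelihood test placed 9. The 3 genes of limma were among both sets. All 99 genes had groups that did not overlap. Over all genes tested this held for 1239 that were lower (6.01%) and 1103 that were higher (5.35%). The median absolute log2 fold change of the 99 was 0.52 and the smallest 0.24, so most of these differences were small. The count moved with single mice, from 34 genes without SD-WT replicate 01 to 187 without SD-AcPbKO replicate 03, and was 62 without SD-AcPbKO replicate 04. In all 6 of these fits 25 genes were past the threshold, among them Bub1b, Dsp, Atf4, Atf5, Chac1, Mthfd2, Slc7a5, Cars, Atp13a4, Clec16a, Snrpc and Snrpd1. Genes below that belong to no fixed list were named after their DESeq2 values were seen.

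**Figure D2:**
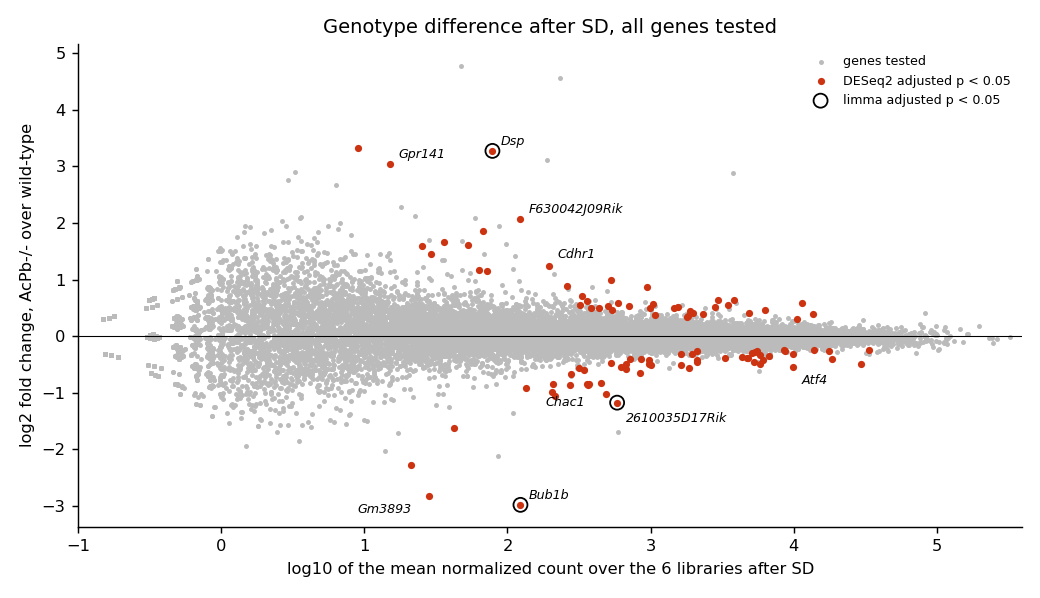
Log2 fold change (AcPb-/- over wild-type after SD, limma) of each of 20621 genes against the log10 of its mean normalized count. Grey points are all genes, red points the 99 past the DESeq2 threshold and circles the 3 past the limma threshold, with most red points of well expressed genes within 1 log2 unit of 0.

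Several of the genes past the DESeq2 threshold had large differences at low counts. Cdhr1 (chromosome 14 from 37077857 to 37098347), a cadherin best known from photoreceptors, had 103, 106 and 142 normalized counts in wild-type and 278, 293 and 252 in AcPb-/- mice, all higher, with a log2 fold change of 1.24 (DESeq2 adjusted p = 9.48e-08, limma 0.0565). Cd59a, an inhibitor of the complement membrane attack complex, had 271, 265 and 223 and 372, 451 and 418, a log2 fold change of 0.71 (DESeq2 adjusted p = 0.000955). G530011O06Rik rose above every wild-type library as well, at 0.99 (DESeq2 adjusted p = 3.09e-10), but 42.3% of its 100-base stretches also occur in other genes, Mid1 first, so its reads are uncertain. Of the same kind, Gm3893 (-2.83) shares 97.5% of its stretches with other genes. Tph1, which encodes tryptophan hydroxylase of peripheral serotonin synthesis, was at 12.0, 13.7 and 10.2 and 29.7, 50.2 and 36.1 normalized counts (1.59, DESeq2 adjusted p = 0.0413).

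Other genes past the DESeq2 threshold were lower by modest amounts. Itpka, a kinase of inositol trisphosphate in dendritic spines, had 6723, 5936 and 7629 normalized counts in wild-type and 4467, 4745 and 5203 in AcPb-/- mice, a log2 fold change of -0.49 (DESeq2 adjusted p = 0.00184). Dusp14, a phosphatase, was at -0.45 (adjusted p = 0.00028 in DESeq2), Rnd1, a small GTPase, at -0.43 (0.00154), and Nudt3, a hydrolase of inositol pyrophosphates, at -0.41 (0.00106). Git1, a scaffold of synapses, was at -0.24 (DESeq2 adjusted p = 0.0222) and Mfn2, which fuses mitochondria, at -0.24 (0.0222), the smallest of the 99 fold changes. Snrpc and Snrpd1, proteins of spliceosomal snRNPs, were at -0.49 (DESeq2 adjusted p = 0.000448) and -0.46 (0.00155). Higher instead were Gabra2, a GABA-A receptor subunit, with 2906, 2606 and 3603 against 5364, 4129 and 4573 normalized counts (0.63, DESeq2 adjusted p = 0.00134), and Scn9a, a voltage-gated sodium channel, with 255, 273 and 248 against 369.9, 423 and 346 (0.55, 0.0222). Gabra2 was 1 of 19 GABA-A receptor genes, and the only one whose libraries did not overlap after SD. It was also higher in undisturbed AcPb-/- mice (1.01, DESeq2 adjusted p = 5.3e-15). Gabra2 is known to differ in level between C57BL/6 substrains. Of 14 genes tested from a list of such genes, 2 (Gabra2 and Entpd4) were higher and 0 lower without overlap. The shares over all genes tested were 5.35% and 6.01%. Every 100-base stretch of Entpd4 also occurs in another gene. Nnt, the transhydrogenase known to be truncated in C57BL/6J, had 1368, 1303 and 1416 normalized counts in wild-type and 1271, 2011 and 1740.3 in AcPb-/- mice, which overlapped, and 734, 692 and 789 against 1296, 1355 and 1126 in undisturbed mice, all higher. Substrain and AcPb genotype cannot be told apart in this design.

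The genes were unevenly spread over chromosomes. On chromosome 13, 25 of 745 genes tested were past the DESeq2 threshold (3.36%), 16 higher and 9 lower, against 0.0899% on chromosome 9 and 0.951% on chromosome 16, the lowest and the second highest of the autosomes and X. On that chromosome 130 genes had groups that did not overlap (17.45%), where the other autosomes and X had 9.25% to 13.1%. All 25 genes pointed the same way in undisturbed mice, and 4 of them, Rreb1, Gpr137b, Adarb2 and Hist1h2bc, passed the DESeq2 threshold there too. Some of the others, Dsp, F630042J09Rik and Zfp457 among them, had no DESeq2 adjusted p in undisturbed mice and could not pass there.

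The 25 genes lay between positions 8202866 and 119654359 of chromosome 13, some of them side by side. Rreb1, a zinc finger repressor, Ssr1, a subunit of the translocon-associated complex, and Dsp followed each other between 37778400 and 38198577. All of them were higher, Rreb1 with 5948, 5154 and 4899 against 7361, 7686 and 6873 normalized counts (0.46, DESeq2 adjusted p = 0.000982). A further 7 genes, mostly of zinc finger proteins, lay between 67173182 and 67844035. Of these, F630042J09Rik had 43.4, 45.6 and 40.7 against 152, 329 and 128 normalized counts (2.08, DESeq2 adjusted p = 1.25e-07), Zfp457 had 24.0, 25.1 and 34.6 against 106, 152 and 65.4 (1.85, 0.000108), and Rsl1, a repressor of sex-dependent liver genes, had 356, 352 and 341 against 255, 135 and 207 (-0.86, 0.0196). Zfp459 and Zfp729a were higher too (0.89 and 0.38), and 9430065F17Rik and Gm10037 were lower (-1.62 and -0.99), so neighbours differed in direction.

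Elsewhere on chromosome 13, Ccl28, a mucosal chemokine, was lower at 320.5, 285 and 258 against 167, 89.7 and 175 normalized counts (-1.05, DESeq2 adjusted p = 0.00565). Gpr137b, a lysosomal membrane protein, was higher at 697, 641 and 615 against 975, 1671 and 1025 (0.87, 0.000478), with 16.6% of its 100-base stretches shared with other genes. Mtrr, which keeps methionine synthase active, was at 0.49 (DESeq2 adjusted p = 0.00155). Undisturbed CTL-AcPbKO replicate 03 again lay near the wild-type mice at some of these genes, though not at all. It had 20.1 normalized counts of F630042J09Rik where replicates 04 and 05 had 194 and 187 and wild-type mice had 35.2, 22.7 and 26.9, and 431 of Gpr137b against 732 and 743 and a wild-type range of 355 to 436. At Rreb1 it had 2814 against 3349 and 3175, with wild-type mice at 2208 to 2443. At Hist1h2bc it had 361 against 303 and 288, with wild-type mice at 463 to 517. In both of the latter it lay outside the wild-type range on the side of the other AcPb-/- libraries.

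**Figure D3:**
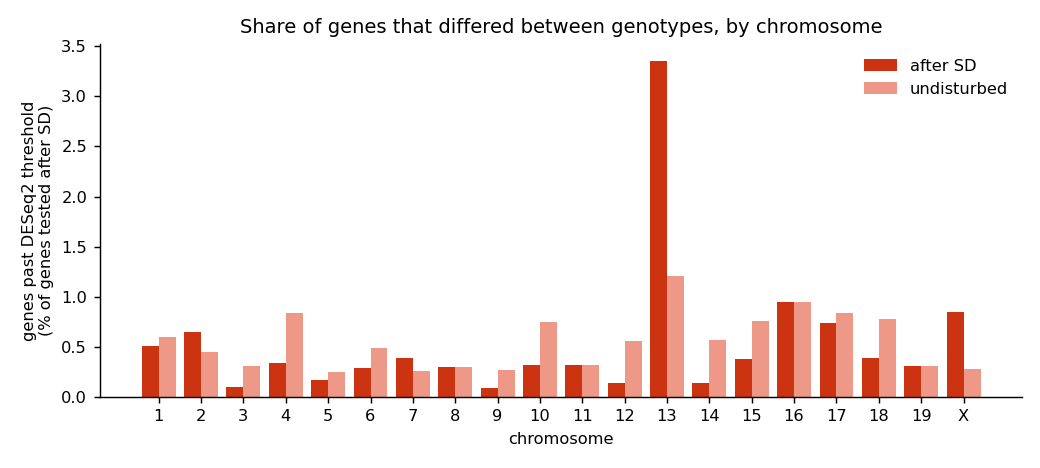
Genes past the DESeq2 threshold as a percentage of the genes tested after SD on each chromosome, for AcPb-/- against wild-type mice after SD and undisturbed. Chromosome 13 stands at 3.36% after SD and 1.21% in undisturbed mice. DESeq2 gave an adjusted p to 17816 genes after SD and to 12408 in undisturbed mice, and genes without one could not pass.

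Around Il1rap itself, the altered gene on chromosome 16, the limma test found 0 of 244 genes within 10 Mb on each side (19 at an unadjusted p under 0.05), and DESeq2 found 4 (1.64%). These were Gm20319, Atp13a4, Tctex1d2 and Tfrc. Within 5 Mb it found 2 of 75, and within 20 Mb 5 of 391. Of the 244 genes, 12 (4.92%) lay higher and 20 (8.20%) lower without overlap, against 5.35% and 6.01% of all genes tested. Atp13a4 (chromosome 16 from 29395853 to 29544864), a P-type ATPase, had 859.8, 805 and 849 normalized counts in wild-type and 1190.2, 1294 and 1262 in AcPb-/- mice, clearly apart, with a log2 fold change of 0.57 (DESeq2 adjusted p = 6.79e-07, limma 0.0565) and of 0.61 in undisturbed mice. Tctex1d2, a dynein light chain, was also higher at 456, 449 and 517 against 703, 752 and 672 (0.58, DESeq2 adjusted p = 0.000448). Tfrc, the transferrin receptor that takes up iron, was lower at 6631, 6226 and 8176 against 4965, 5042 and 5516 (-0.43, DESeq2 adjusted p = 0.0154). On the same chromosome, outside that window, Clec16a (chromosome 16 from 10545339 to 10744878), which acts in mitophagy, was higher at 11749, 12400.0 and 10967 against 16441, 14975 and 14909 (0.40, DESeq2 adjusted p = 0.000519), and it was higher in undisturbed AcPb-/- mice too (0.33, DESeq2 adjusted p = 0.0361).

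Genes of the amino acid response were lower together in AcPb-/- mice. ATF4 is a transcription factor whose translation rises when the kinases of the integrated stress response phosphorylate eIF2 alpha, for example when amino acids run short. It binds a composite C/EBP-ATF element and induces genes for amino acid synthesis, import and tRNA charging. Of the 16 genes of the ATF4 list, 8 were lower past the DESeq2 threshold and 0 higher, against 0.314% and 0.241% of all genes. The limma test placed 0 of them past its own threshold and had 9 lower and 1 higher at an unadjusted p under 0.05. Without overlap between the groups, 9 of the 16 were lower and 1 was higher, against 6.01% and 5.35% of all genes tested. Without SD-AcPbKO replicate 04 the counts were also 9 and 1, where the shares over all genes were 9.3% lower and 9.06% higher. The median log2 fold change of the list was -0.28, against 0.002 over all genes tested. DESeq2 with 1 library left out placed between 5 and 8 of the 16 past its threshold as lower, and 6 without SD-WT replicate 04, which was the highest library at Atf4, Chac1, Mthfd2 and Sesn2.

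The element is shown where a promoter of the list holds it. The letters searched were TGATGNAA on either strand, in the window from 250 bases before to 50 after each start in RefSeq on GRCm38.p6, and they occur in 1304 of 32851 such windows (3.97%). Among 15 list genes with a window, 7 had a match, but of the 8 genes past the DESeq2 threshold only Asns and Chac1 had one and Slc7a5 had no window. Every match in the printed stretch is in capitals, read 5′ to 3′ along the gene. Stretches are given for Chac1 and Asns and for Slc7a11, the only gene of the list that was higher without overlap. The positions are chr2:119351023-119351082, plus strand, for Chac1, chr6:7693210-7693269, minus strand, for Asns, and chr3:50443646-50443705, minus strand, for Slc7a11:
Chac1: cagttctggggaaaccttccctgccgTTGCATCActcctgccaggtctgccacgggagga
Asns: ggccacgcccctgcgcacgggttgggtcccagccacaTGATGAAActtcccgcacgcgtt
Slc7a11: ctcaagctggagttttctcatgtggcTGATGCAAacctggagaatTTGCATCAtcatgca
In Chac1 the capitals read on the opposite strand. Slc7a11 holds 2 matches, the second of them on the opposite strand. The match ends 185 bases before the start in Chac1 and 15 in Asns, and those of Slc7a11 end 58 and 39 bases before it. A match describes letters in this window and is no measured site.

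Atf4 (chromosome 15 from 80255184 to 80257541) had 10816, 11882 and 12423 normalized counts in wild-type mice and 7808, 8171 and 7999.5 in AcPb-/- mice. The AcPb-/- libraries lay close together and below every wild-type one, by -0.55 on the log2 scale (SE 0.07, DESeq2 adjusted p = 4.66e-09, limma 0.0548). Atf5, a related factor, had 1223, 1141 and 1156 against 775, 898 and 805 (-0.51, DESeq2 adjusted p = 0.000448). Both ATF factors of the list were thus lower.

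Chac1 (chromosome 2 from 119351229 to 119354381), an enzyme that degrades glutathione, had the largest difference of the list among the genes past the DESeq2 threshold. It had 575, 615 and 779 normalized counts in wild-type mice and 272, 337 and 351 in AcPb-/- mice, a log2 fold change of -1.03 (SE 0.14, DESeq2 adjusted p = 9.48e-08, limma 0.0645). Its gene lies on chromosome 2, as Bub1b does. Among enzymes of amino acid and one-carbon metabolism, Mthfd2 of the mitochondrial folate pathway had 386, 454 and 587 against 252, 283 and 251 normalized counts (-0.84, DESeq2 adjusted p = 0.000466). Asns, asparagine synthetase, had 7303, 7740.2 and 7768 against 6418, 5459 and 5942 (-0.36, DESeq2 adjusted p = 0.00618). Psat1 of serine synthesis had 5817, 5789.5 and 5971 against 4619.8, 5112 and 4717 (-0.28, DESeq2 adjusted p = 0.0253). In all of them the highest AcPb-/- library was below the lowest wild-type one.

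Slc7a5, the light chain of the large neutral amino acid transporter, had 5333, 5286 and 5793 normalized counts in wild-type and 4307, 4169.7 and 4009 in AcPb-/- mice (-0.39, DESeq2 adjusted p = 0.00028). Its heavy chain Slc3a2 lay lower without overlap but passed neither test (-0.16, DESeq2 adjusted p = 0.672). Sesn2, a leucine sensor that restrains mTORC1, had 753, 837 and 864 against 637, 645 and 570.0 (-0.41, DESeq2 adjusted p = 0.044). The exception was Slc7a11, the cystine-glutamate antiporter, with 2526, 2099.9 and 2492 against 2809, 2830.0 and 2737 normalized counts, all higher, at 0.24 (DESeq2 adjusted p = 0.549). Trib3, Phgdh, Ddit4, Nupr1, Vldlr and Fgf21 overlapped between genotypes, Fgf21 at no more than 4.24 normalized counts. Of the 16 genes, 2 had a fold change above 0, Slc7a11 and 1 of these overlapping genes, the latter at 1.11.

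**Figure D4:**
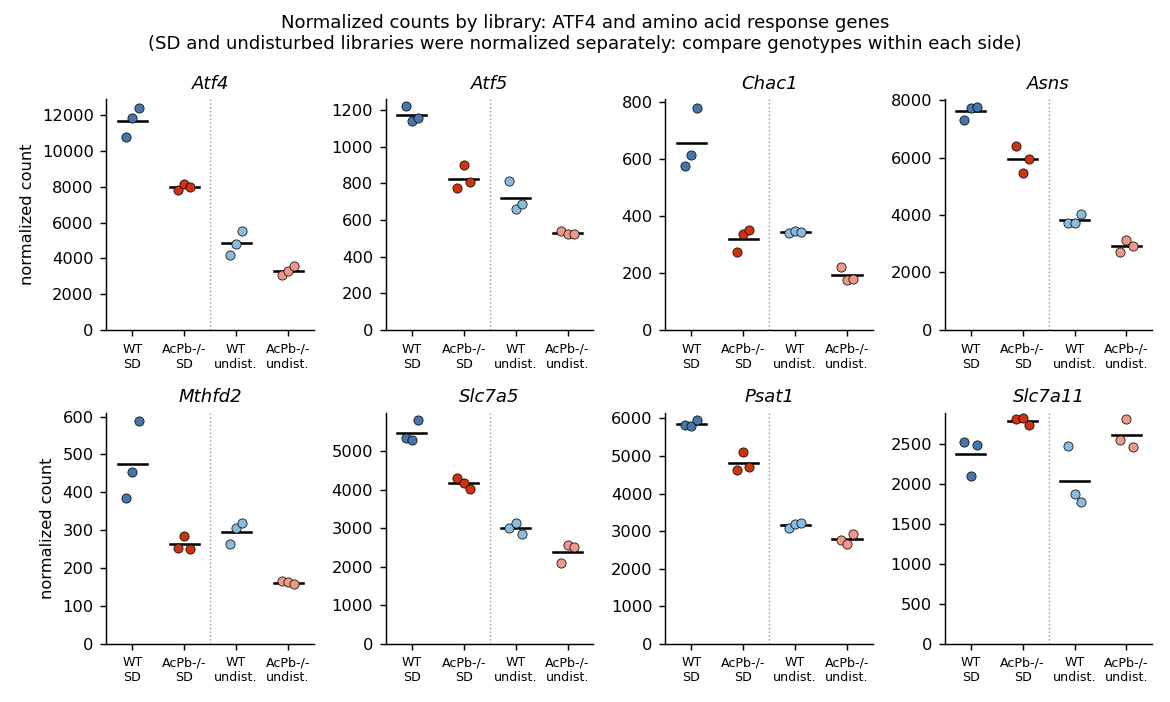
Normalized count of Atf4, Atf5 and 6 genes of amino acid metabolism and transport in each of the 12 libraries (points) with the group mean (line), SD libraries left of the dotted line and undisturbed ones right of it. The AcPb-/- libraries lie below the wild-type ones after SD in every panel but Slc7a11, and Slc7a11 is the only panel in which the undisturbed genotypes overlap.

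Undisturbed mice showed the same pattern in other animals. There 8 of the 16 genes were lower without overlap and 0 higher, against 7.04% and 7.35% of 20273 genes, the median was -0.30, and 6 genes passed the DESeq2 threshold, which 104 of 12408 genes did (0.838%). The log2 fold change was -0.55 for Atf4, -0.85 for Chac1, -0.86 for Mthfd2 and -0.39 for Asns. The difference between the contrasts was -0.18 for Chac1 and 0.03 for Asns (limma adjusted p for the interaction 0.986 and 0.993). Here and in each interaction below, SD cannot be told apart from sex, since only the undisturbed libraries hold female-like ones by Xist reads.

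Genes outside that list but tied to amino acid supply were examined in a pair of lists drawn up after these values were seen, so their counts describe only. Of 20 cytosolic aminoacyl-tRNA synthetases, which charge tRNAs, 10 were lower and 1, Hars, was higher without overlap. Over all genes tested after SD 6.01% were lower and 5.35% higher. Cars, the cysteinyl enzyme, had 3481, 3699 and 4134 normalized counts in wild-type and 2857, 2812 and 2926 in AcPb-/- mice (-0.39, DESeq2 adjusted p = 0.00255). Yars, Gars, Nars and Mars lay lower by smaller amounts (-0.25, -0.24, -0.22 and -0.21) and passed neither test. Of 13 further genes of amino acid supply, 7 were lower and 0 higher. Slc7a3 and Slc7a1, which import cationic amino acids, had 417, 359.9 and 617 against 212, 247 and 307 (-0.84, DESeq2 adjusted p = 0.0109) and 4576, 5203 and 4995 against 4022, 3661 and 3813 (-0.36, 0.0043). Aldh1l2, a mitochondrial folate enzyme, had 609.5, 606 and 639.8 against 432, 464 and 435 (-0.48, DESeq2 adjusted p = 0.00418), with 14.1% of its exon bases under D10Wsu102e on the other strand. ER chaperones and other genes of the unfolded protein response, another arm of the stress response, did not share the pattern after SD. Of these 20 genes, 1 was lower and 0 higher without overlap, with a median of 0.045. Of 20 heat shock genes, 0 were lower and 1 was higher after SD. In undisturbed mice the ER list had 3 lower and 0 higher without overlap, 18 below 0 and a median of -0.12. The heat shock list had 6 lower and 0 higher there, 17 below 0 and a median of -0.11. Among all genes in undisturbed mice 7.04% were lower and 7.35% higher.

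Microglial transcripts lay lower in AcPb-/- mice after SD. Of 17 microglia markers, 10 were lower without overlap (58.8%) and 0 higher, with a median log2 fold change of -0.23. Over all genes tested 6.01% were lower and 5.35% higher. In bulk tissue, fewer microglia and less RNA per microglial cell cannot be told apart. The summed level of the 17 genes was 35249 to 37822 in wild-type and 27890 to 33320 in AcPb-/- mice. Without SD-AcPbKO replicate 04 the count was 11, where the share over all genes rose to 9.3%. By test, limma placed 0 of the 17 past the threshold, with 9 lower at an unadjusted p under 0.05, and DESeq2 placed 1, Trem2.

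Trem2 (chromosome 17 from 48346401 to 48354147), a lipid-sensing receptor of microglia, had 413, 401 and 423 normalized counts in wild-type mice and 253, 248 and 321 in AcPb-/- mice. The wild-type libraries were close together, all AcPb-/- libraries lay below them, and the highest of these was replicate 04. The log2 fold change was -0.60 (SE 0.13, DESeq2 adjusted p = 0.0136, limma 0.26). The complement genes C1qa, C1qb and C1qc, which microglia make in the brain, each lay lower without overlap, at -0.32, -0.34 and -0.31 (DESeq2 adjusted p = 0.146, 0.0969 and 0.076). So did Cx3cr1, the fractalkine receptor (-0.21), Csf1r, the receptor microglia need to survive (-0.27), Ctss (-0.32), Gpr34 (-0.30) and Siglech (-0.19). P2ry12 and Tmem119, homeostatic markers, overlapped between genotypes (-0.14 and -0.18).

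In undisturbed mice 1 of the 17 microglia markers was lower without overlap, against 7.04% of all genes, and the median was -0.055. For Trem2 the undisturbed values were 341, 384 and 325 against 335, 300.1 and 352, which overlapped. The interaction of genotype with SD was -0.51 on the log2 scale for Trem2 (unadjusted p = 0.00711, limma adjusted p = 0.986), so a difference between the contrasts was not shown. Of 10 border macrophage markers, 2 were higher and 1 lower without overlap after SD, against 5.35% and 6.01% of all genes tested. Their median was 0.125, with 0 at an unadjusted limma p under 0.05. All 12 astrocyte markers and 11 of 13 endothelial markers also had a fold change below 0 after SD, with medians of -0.074 and -0.127, and their part in the microglial counts was not tested.

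Few molecules of IL1 signalling themselves differed after SD. Of 32 genes of the IL1 family tested, 0 were past the limma or the DESeq2 threshold (1 at an unadjusted limma p under 0.05), 3 were higher and 1 lower without overlap (3 and 3 without SD-AcPbKO replicate 04), and the median was -0.022. For all genes tested the shares were 5.35% higher and 6.01% lower, and 9.06% and 9.3% without that library. Log2 fold changes of the 32 ran from -0.35 to 1.38, and 1 of the 32 passed the DESeq2 threshold in undisturbed mice. Among ligands, Il1b had 26.8, 11.4 and 26.4 normalized counts in wild-type and 20.1, 19.7 and 31.2 in AcPb-/- mice, with overlap. Il18 was lower without overlap, at 1271, 1171 and 1204 against 1127, 1129.9 and 1069 (-0.13, limma adjusted p = 0.868). Among receptors, Il1r1, the signalling receptor, had 810.0, 649 and 590.0 and 616, 822 and 678, and Il1rapl1 and Il1rapl2 overlapped as well. Among the transducers, Myd88 had 477, 484 and 644 and 464, 546 and 491, and Traf6 lay higher by 0.06 with no overlap (limma adjusted p = 0.923). Downstream, 2 of 11 NF-kB genes, Rel and Nfkbib, were lower and 0 higher without overlap (3 and 0 without that library). Fold changes of the 11 ran from -0.71 to 0.04, with 1 lower at an unadjusted limma p under 0.05. The 6 genes of the TNF list and 21 interferon-stimulated genes showed 0 in either direction. In undisturbed mice 5 of 13 MHC class I genes tested lay below 0 and 8 above. After SD all 13 lay below 0, with a median of -0.21 and 1 lower without overlap. Of 28 genes linked to bacterial peptidoglycan, 3 were higher (Lbp, Cd163 and Siglec1) and 4 lower (Trem2, Cx3cr1, Cd14 and Pglyrp1) without overlap. Lbp, which presents bacterial lipopolysaccharide, had 128, 86.5 and 96.6 against 178, 154 and 197 normalized counts (0.77, DESeq2 adjusted p = 0.0729) and pointed the other way in undisturbed mice (-0.28; interaction unadjusted p = 0.00136, limma adjusted p = 0.986).

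Ribosomal protein genes lay slightly lower in AcPb-/- mice. Of 83 cytosolic ribosomal protein genes, 20 were lower without overlap (24.1%) and 0 higher, with a median log2 fold change of -0.107. The shares over all genes tested were 6.01% and 5.35%. None was past the limma or the DESeq2 threshold, and 16 were lower at an unadjusted limma p under 0.05. Without SD-AcPbKO replicate 04 the counts were 25 lower and 2 higher, against 9.3% and 9.06% of all genes. Rpl28 was typical of the larger ones, with 5056, 5053 and 5213 against 4019.9, 4546 and 4220.3 normalized counts (-0.26, DESeq2 adjusted p = 0.0964). The summed levels overlapped, at 508000 to 566760 in wild-type and 454880 to 518690 in AcPb-/- mice. In undisturbed mice 12 were lower and 7 higher, against 7.04% and 7.35% of all genes, and the median was -0.0082.

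Shares of mitochondrial and proteasome genes that were lower lay nearer the 6.01% over all genes tested, of which 5.35% were higher. Of 84 nuclear genes for subunits of oxidative phosphorylation, 10 were lower (11.9%) and 0 higher without overlap. Fold changes lay below 0 for 73 of the 84, with a median of -0.104, close to the -0.107 of cytosolic ribosomal proteins. Cox5b, a subunit of cytochrome c oxidase, had 9355, 9303 and 9127 against 7615, 7995 and 7778 normalized counts (-0.25), and alone of the 84 passed the DESeq2 threshold (adjusted p = 0.0222). Mitochondrial ribosomal proteins had 7 of 77 lower and 1 higher (9.09% and 1.30%), and 58 of the 77 had a fold change below 0. The proteasome, which degrades proteins, had 4 of 39 lower (10.3%) and 1 higher without overlap, 34 of the 39 had a fold change below 0, and without SD-AcPbKO replicate 04 the counts were 8 and 1. Without that library oxidative phosphorylation had 12 lower and 1 higher, and mitochondrial ribosomal proteins 9 and 1. The shares over all genes were then 9.3% lower and 9.06% higher.

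Collagen genes leaned the other way. Of 44 collagen chains, which build the extracellular matrix, 9 were higher (20.5%) and 3 lower (6.82%) without overlap, with a median of 0.25, and 12 and 5 without SD-AcPbKO replicate 04. Among all genes tested 5.35% were higher and 6.01% lower, and 9.06% and 9.3% without that library. Col5a1 of fibrillar collagen V had 2544, 2689 and 1818 normalized counts in wild-type and 3330.0, 3848 and 3672 in AcPb-/- mice (0.64, DESeq2 adjusted p = 0.00218). Col6a2 of microfibrillar collagen VI had 1295, 1416 and 1136 against 1760.4, 2040.0 and 1695 (0.52, DESeq2 adjusted p = 0.00255). Both were higher in each AcPb-/- library after SD. In undisturbed mice 4 collagen genes were higher and 2 lower without overlap, against 7.35% and 7.04% of all genes, with a median of 0.081. Col5a1 and Col6a2 overlapped between genotypes there, at 0.21 and -0.04. Col25a1, a transmembrane collagen of neurons, was among those that lay lower (-0.24, DESeq2 adjusted p = 0.169). The 12 markers of meningeal fibroblasts, which make several of these chains, were 2 higher and 0 lower without overlap, all 12 had a fold change above 0, and their sum was 45275 to 53971 in wild-type and 47711 to 59548 in AcPb-/- mice. The part of meningeal tissue in the collagen counts was not tested.

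Genes induced by neuronal activity were mixed. Of 22 immediate early genes, 4 were higher (Jun, Nr4a2, Btg2 and Maff) and 2 lower (Egr1 and Ier2) without overlap, and 4 and 5 were so without SD-AcPbKO replicate 04. The shares over all genes tested were 5.35% higher and 6.01% lower, and 9.06% and 9.3% without that library. Jun, a subunit of the AP-1 factor, had 2535, 2313 and 2137 normalized counts in wild-type and 3736, 2856 and 3469 in AcPb-/- mice (0.52, DESeq2 adjusted p = 0.00218), and 7.28% of its exon bases lie under Junos on the other strand. Nr4a2, an orphan nuclear receptor, had 2796, 3197 and 2465 against 3716, 3676 and 5071 (0.55, DESeq2 adjusted p = 0.0135). Its direction was the opposite in undisturbed mice, with 2066, 2173 and 2159 against 2509, 1115 and 783, which overlapped (interaction 1.26, limma adjusted p = 0.986). Fos, Arc and Npas4, the most used markers of activity, overlapped between genotypes after SD, at 0.11, -0.06 and 0.05.

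Among cortical neuron classes a few peptides and markers differed. Of 20 interneuron markers, 4 were lower (Npy, Cck, Crh and Cort) and 1 higher (Adarb2) without overlap, against 6.01% and 5.35% of all genes tested. Npy, the peptide of somatostatin and neurogliaform cells, had 5530.2, 5683 and 4834 normalized counts in wild-type and 4127, 4103 and 4044 in AcPb-/- mice (-0.38, DESeq2 adjusted p = 0.00218). Cort, cortistatin, a peptide linked to slow wave sleep, had 272, 333 and 432 against 197, 177 and 262 (-0.70, DESeq2 adjusted p = 0.0946). Adarb2, a marker of interneurons from the caudal eminence and 1 of the chromosome 13 genes, had 1388, 1181 and 1065 against 1720.1, 1823 and 1595 (0.51, DESeq2 adjusted p = 0.00504).

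Of 24 excitatory and layer markers, 2 were higher and 1 lower without overlap. Lamp5, which marks superficial layers and neurogliaform cells, was the lower one, with 36127, 35069 and 32399 against 27720.0, 24970.0 and 21525 normalized counts (-0.49, DESeq2 adjusted p = 0.00111). It was lowest in SD-AcPbKO replicate 04, at 21525, and the other AcPb-/- libraries were still below the lowest wild-type value of 32399. In a list that overlaps these classes by function, 5 of 51 neuromodulator receptors were higher and 3 lower (8 and 6 without SD-AcPbKO replicate 04), and of 91 potassium channels 4 were higher and 4 lower (8 and 7 without it). For all genes tested the shares were 5.35% and 6.01%, and 9.06% and 9.3% without that library. Sstr2, a somatostatin receptor, had 1480.4, 1597 and 1728 against 2001, 2156 and 2356 (0.44, DESeq2 adjusted p = 0.00393). It pointed the other way in undisturbed mice (-0.46), with an interaction of 0.90 (limma adjusted p = 0.986).

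Other lists had few or no genes whose groups lay apart. Of 22 clock genes, 18 glucocorticoid-responsive genes, 12 astrocyte markers and 15 oligodendrocyte markers, 0 had groups that did not overlap. Without SD-AcPbKO replicate 04, 4 clock genes were higher, 2 astrocyte markers lower, and 1 glucocorticoid-responsive gene higher and 1 lower. The shares over all genes were 5.35% higher and 6.01% lower, and 9.06% and 9.3% without that replicate. For oligodendrocytes the median was nonetheless -0.28, with sums of 135680 to 186890 in wild-type and 110390 to 163730 in AcPb-/- mice, and it was -0.53 in undisturbed mice. Endothelial markers had 2 of 13 lower, Slco1a4 and Ly6c1, and pericyte markers 0 of 10.

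**Figure D5:**
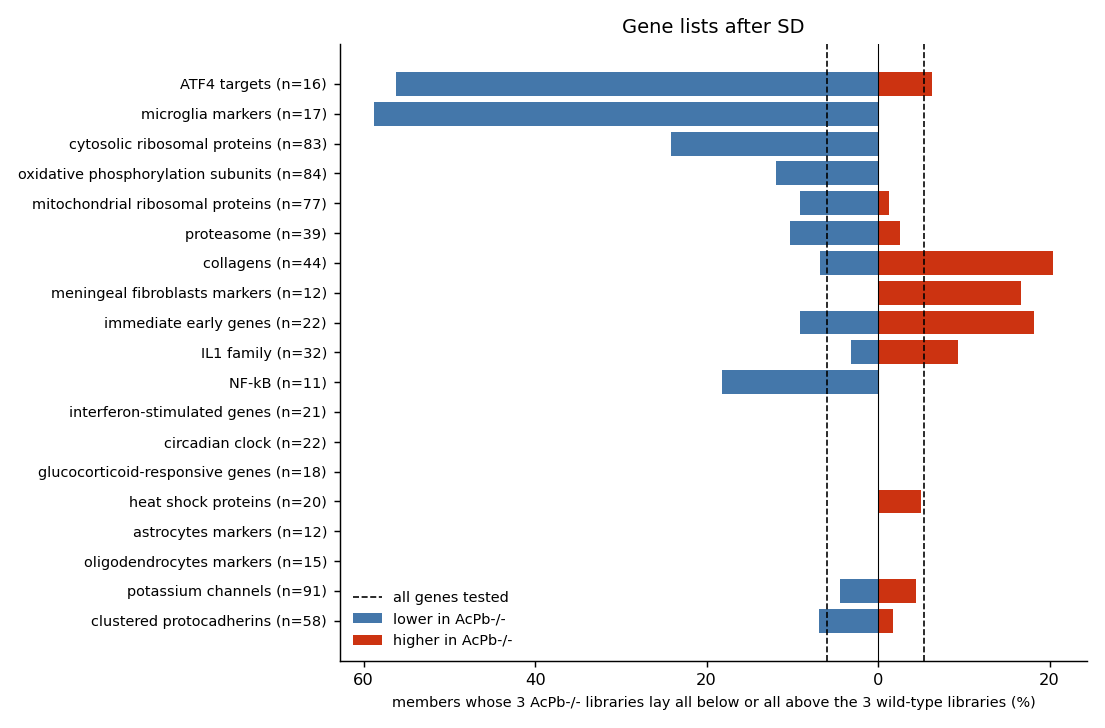
Share of the tested members of 19 gene lists whose 3 AcPb-/- libraries after SD lay all below (blue, to the left) or all above (red, to the right) the 3 wild-type libraries, in percent, with the shares over all 20621 genes as dashed lines (6.01% lower, 5.35% higher). ATF4 targets (56.2% lower) and microglia markers (58.8%) reach farthest to the left, and collagens (20.5%) farthest to the right.

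Set beside the undisturbed mice, whose libraries are all different ones, the contrast after SD shared its direction in 11471 of 19916 genes tested in both (57.6%). DESeq2 gave an adjusted p to 17816 genes after SD and to 12408 in undisturbed mice. Genes without one in undisturbed mice, Bub1b, Dsp and Cdhr1 among them, could not pass in both. Of the 99 genes past the DESeq2 threshold after SD, 87 pointed the same way in undisturbed mice. The threshold was passed in both by 22, which is 22.2% of the 99 and 21.2% of the 104 undisturbed ones. All 22 had the same direction. They include Atf4, Atf5, Chac1, Asns, Mthfd2, Slc7a5, Slc7a3 and Cars of amino acid metabolism, Snrpc and Snrpd1 of splicing, Atp13a4, Clec16a and Tfrc of chromosome 16, and Gabra2.

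Whether the genotypes differed more after SD than without it was tested as an interaction over all 12 libraries, normalized together. All 6 SD libraries have Y-linked reads and 4 of the 6 undisturbed ones have Xist reads instead, so SD and sex are mixed in this test. At Nr4a2 and Sstr2 the direction in undisturbed mice comes from CTL-AcPbKO replicates 04 and 05, with 1115 and 783 normalized counts of Nr4a2 against 2509 in replicate 03, and 406 and 393 of Sstr2 against 664. In limma 0 of 20978 genes passed the threshold (0.0%), with 839 at an unadjusted p under 0.05, while edgeR placed 0 and DESeq2 placed 1, Polr2k. Polr2k, a small subunit shared by RNA polymerases, had 569.8, 560.3 and 655 normalized counts in wild-type and 467, 523 and 524 in AcPb-/- mice after SD (-0.24), and 334, 293 and 316 against 145, 92.7 and 163 in undisturbed mice (-1.26). The genotypes thus lay farther apart in the undisturbed mice, by 1.03 in limma's interaction (adjusted p = 0.986). For Bub1b, Dsp and 2610035D17Rik the interaction was -1.19, 1.76 and -0.41 (limma adjusted p = 0.986, 0.986 and 0.986), so a difference between the contrasts was not shown for them.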

How the data were processed

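Somatosensory cortex RNA was sequenced as paired 100 bp reads from stranded mRNA libraries. Reads were aligned with HISAT2 2.2.1 to mm10 and counted per gene; the study's methods name HTSeq and the submitters' processing notes featureCounts, and the annotation and strand setting are not given in the sources used here. The deposited values (unit: signal) are reads that the authors divided by DESeq2 size factors within each table, so SD and undisturbed tables were scaled separately. Dividing by the step of 1 read gave whole reads, within 0.01, for 100.0% of 293052 values. Of 5 tables, 2 were used. Their columns of fold changes and p-values were not used.

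Fold changes and adjusted p (Benjamini-Hochberg) are from limma 3.58.1 (R 4.3.3) with a variance trend on log2(normalized count + 1), with 4 residual degrees of freedom, for genes with a read in any of the 6 libraries. The design fixed this test for normalized values. DESeq2 1.42.0 and edgeR 4.0.16 on the recovered reads are alternatives. The interaction was fitted over all 12 libraries. The limma test was tried on simulated counts, with the same relative spread set for every gene and changes larger than most seen here. That trial does not show how the test behaves on these libraries. A gene is called non-overlapping where all 3 values of one genotype lie beyond all 3 of the other. Genes named were Il1rap, members of the gene lists and genes past the limma threshold: up to 15 per direction by fold change with a mean of 50 or more normalized counts, those within 10 Mb of Il1rap and those of the interaction, leaving out predicted genes and numbered clones. Other genes were named after their values were seen. The genotype contrast, its genes and the gene lists were chosen with earlier results of these data known. The labels count as many mice as samples in each group. Positions are from GENCODE M21 and promoters from RefSeq.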

Additional observations from a re-analysis of the deposited data

How the results depend on the processing

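The limma count of 3 genes (1 higher, 2 lower) depended on the settings. It was 1 (0 higher, 1 lower) at an adjusted p under 0.01, 17 (13 and 4) without the variance trend, 5 (3 higher) in a fit over 12 libraries, 0 with the replicate number as a block, 0 to 0 with 1 library left out, 9 (5 and 4) in edgeR and 99 (43 and 56) in DESeq2. Within 10 Mb of Il1rap, where limma found 0, the count was 1 with a pseudocount of 10, 1 without the trend, 3 in the fit over 12 libraries, 1 in edgeR and 4 in DESeq2. Members of all gene lists were counted too, including the pair of lists drawn up after the values were seen. Past the threshold were 1 in limma, 0 at an adjusted p under 0.01, 0 with a pseudocount of 10, 0 without the trend, 0 with the block, 0 to 0 with 1 library left out, 3 in edgeR and 24 in DESeq2. The 24 include Cars, Slc7a1, Slc7a3 and Aldh1l2 of that pair. The interaction count of 0 became 2 without the trend, 1 in DESeq2 (Polr2k) and 0 to 1 with 1 library left out, the 1 being Cfap36 without CTL-AcPbKO replicate 03. DESeq2 with 1 library left out, chosen after seeing the data, placed 34 to 187 genes. Of 830 values for 52 named genes, 750 kept direction and side of the threshold, 29 lost and 51 gained the threshold, and 0 turned direction. The cause of these shifts was not tested. Replicate numbers 02 and 04 occur in both genotypes, with correlations of deviations of 0.2088 and 0.2174. With only 2 such pairs and no label that ties them, the numbers were not taken as a pairing.

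The number of genes past the threshold differs between tools on the same 6 libraries, and the DESeq2 counts move with single mice. Counts per gene do not show the AcPb isoform, so the genotype label was not checked from its deleted exon. Sex, by Xist and Y-linked reads, is the same in all SD libraries but mixed in the undisturbed ones.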

Other observations

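In SD-AcPbKO replicate 04 the 9 neutrophil markers tested summed to 1419 normalized counts, against 50.9 to 237 in the other 5 libraries after SD, and all 9 had a fold change above 0 with overlap between the genotypes.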
